A study of Mus musculus with 6 samples.

Results

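Axon guidance ligands and receptors are the secreted and membrane proteins that steer growing axons, and 57 genes of these families were measured among 14807 genes with a symbol of their own. They were taken by symbol as the semaphorins, plexins, neuropilins, ephrins, Eph receptors, Slit ligands, Robo receptors, netrins and the netrin receptors Dcc and Neo1, with the brightest row standing for a gene (58 matching rows, of which 2 belong to Epha2). Nrp2 and Ephb6 shared their rows with another gene and were left out. The samples were N2A cells, a mouse neuroblastoma line, treated with a short hairpin RNA against PTB (3 arrays) or with empty vector (3 arrays), all grown in medium with 10% serum. By the labels, PTB protein was down by close to 80%, and the samples are biological replicates. Neither a hairpin without a target nor a clonal origin is described, so effects of PTB loss and of expressing a hairpin cannot be told apart. The labels do not say whether these biological replicates came from separate cultures, so the p-values measure only the spread between these samples.

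Semaphorins signal through plexins, in the case of the secreted class 3 with neuropilins as ligand-binding partners. Ephrins are tethered to membranes and bind Eph receptor tyrosine kinases on neighbouring cells, Slits bind Robo receptors, and netrins attract axons through DCC or repel them through UNC5 receptors. Plexins, Eph receptors and Robos all pass their signal to small GTPases and the actin and microtubule cytoskeleton, and in the sympathetic lineage, from which neuroblastoma arises, these families guide neural crest migration and nerve growth. PTB is encoded by Ptbp1, binds RNA and represses many exons that neurons use. The deposited values hold 1 signal per gene and array, so exon choice within these receptors is not seen.

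Ptbp1, the targeted gene, had signals of 1307, 1040 and 1957 on the PTB shRNA arrays, against 3387, 4203 and 4404 on the empty vector arrays. The groups did not overlap, and Ptbp1 fell with a log2 difference of -1.51 ± 0.25 (SE; limma adjusted p = 0.0402). Its neuronal paralog Ptbp2 rose by 0.96 ± 0.10 (adjusted p = 0.0288), and Ptbp3 stood at -0.58 (adjusted p = 0.0543). Of 15 sympathetic and neuronal markers Gata3 rose (0.87, adjusted p = 0.0384) and none fell. Phox2a, Hand2, Stmn2 and Gap43 had signals of 1069 or more on every array, with Phox2a between 1072 and 1696 with PTB shRNA and between 1895 and 2367 with empty vector. Signals of Th, the first enzyme of catecholamine synthesis, were 38 to 62 with PTB shRNA and 21 to 40 with empty vector. The neurofilament genes were dim, Nefl at 5 to 23 with PTB shRNA and -2 to 25 with empty vector and Nefm at 20 to 32 with PTB shRNA and 13 to 25 with empty vector. Gata2 (-0.64, adjusted p = 0.0667), Chgb (-0.54, adjusted p = 0.122) and Phox2a (-0.53, adjusted p = 0.181) had groups apart, lower with PTB shRNA, and did not pass. Isl1 (0.73, adjusted p = 0.150) and Gap43 (0.58, adjusted p = 0.0811) had groups apart, higher with PTB shRNA, and did not pass either. Summed signals of 6 leukocyte markers were 102 to 134 with PTB shRNA and 80 to 93 with empty vector, those of 7 endothelial markers 284 to 395 with PTB shRNA and 290 to 379 with empty vector, and those of 6 epithelial markers 208 to 243 with PTB shRNA and 182 to 255 with empty vector. The 8 fibroblast markers summed to 348 to 567 with PTB shRNA and 275 to 352 with empty vector, where Pdgfra rose (1.17, adjusted p = 0.0342), and 5 glial markers summed to 168 to 340 with PTB shRNA and 158 to 206 with empty vector. No marker of these lists was at 0 on every array, and their part in the results below was not tested. Summed signal per array lay between 9098056 and 10440265 with PTB shRNA and between 10651755 and 12509077 with empty vector.

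The semaphorin genes Sema5a and Sema6d and the plexin genes Plxna1 and Plxnb1 rose with PTB shRNA, each by between 0.79 and 1.15 log2 units. These 4 are 7.02% of the 57 members, against 1.36% of all 17213 transcript clusters called higher (234). None was called lower by limma in this fit, against 3.37% of all clusters (580). Plxna3 and Sema4b were called lower under some of the other settings given below. At an unadjusted threshold of 0.05, 17 members (29.8%) were higher, against 8.49% of all clusters, and 2 members (3.51%) were lower, against 16.9% of all clusters. The other 53 members did not pass. Each difference is the mean log2(signal + 16) with PTB shRNA minus that with empty vector, a scale that understates changes of dim genes, and adjusted p-values are limma's over all clusters. In RNA of whole cultures, more RNA per cell and more cells with the RNA cannot be told apart.

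Sema5a encodes a membrane semaphorin with thrombospondin repeats, for which plexin-A1, plexin-A3 and plexin-B3 have been described as receptors. Its signals were 245, 254 and 186 on the PTB shRNA arrays and 97, 96 and 87 on the empty vector arrays. Every PTB shRNA array lay above every empty vector array, with means of 228 ± 36.9 for PTB shRNA and 93.3 ± 5.51 for empty vector (SD, n = 3 each). Sema5a rose by 1.15 ± 0.14 log2 units (SE), or 2.22-fold (adjusted p = 0.0320).

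Sema6d encodes a transmembrane semaphorin of class 6 whose described receptor is plexin-A1. It gave 1334, 1286 and 1122 on the PTB shRNA arrays and 638, 673 and 781 on the empty vector arrays. The lowest PTB shRNA value was well above the highest empty vector value, and Sema6d rose by 0.83 ± 0.12 (SE), or 1.77-fold (adjusted p = 0.0342). Plxna1 encodes that receptor, a type A plexin that also serves class 3 semaphorins together with neuropilins. Its signals were 1132, 1099 and 1176 with PTB shRNA and 581, 685 and 685 with empty vector. The arrays of each group lay close together, with means of 1136 ± 38.6 for PTB shRNA and 650.3 ± 60.0 for empty vector (SD, n = 3 each), and Plxna1 rose by 0.79 ± 0.10 (SE), or 1.73-fold (adjusted p = 0.0320). The gene of this ligand and the gene of its receptor both passed in the same cultures.

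Plxnb1, the gene of the receptor for the semaphorin encoded by Sema4d, had signals of 131, 148 and 143 on the PTB shRNA arrays and 82, 70 and 64 on the empty vector arrays. The groups did not overlap, at 141 ± 8.74 with PTB shRNA and 72 ± 9.17 with empty vector (SD, n = 3 each), and Plxnb1 rose by 0.84 ± 0.11 (SE), or 1.78-fold on that scale (adjusted p = 0.0320). Its ligand gene Sema4d, by contrast, measured 1230, 911 and 1099 with PTB shRNA and 1395, 1392 and 1235 with empty vector. Those groups also lay apart, by only 5 units at the nearest arrays, and the difference of -0.32 did not pass (adjusted p = 0.217). With any 1 of the 6 arrays left out no cluster passed, and the adjusted p of Sema5a, Sema6d, Plxna1 and Plxnb1 ranged from 0.0536 to 0.121. Sema6d also missed the threshold with a pseudocount of 1 (0.84, adjusted p = 0.0505).

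**Figure D1:**
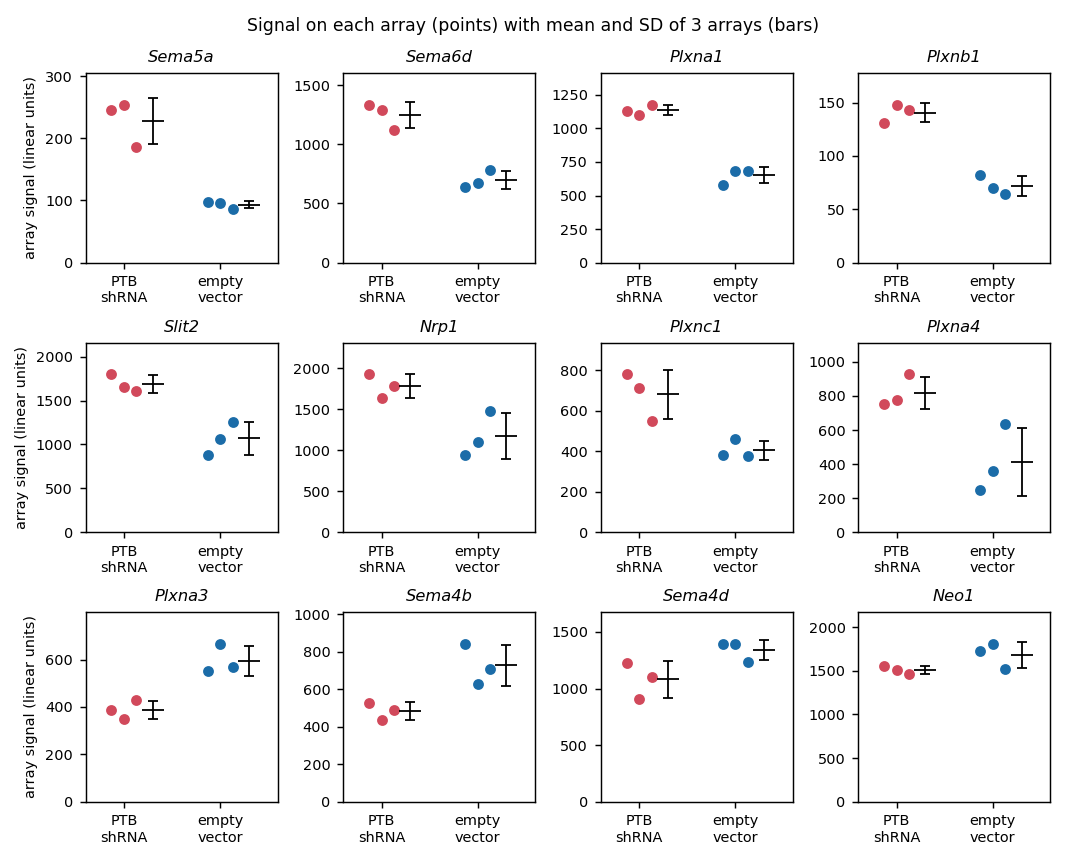
Array signal in linear units (vertical axes, each starting at 0) of 12 members, with PTB shRNA arrays left of empty vector arrays, points for single arrays and black bars for the mean ± SD of 3 arrays. The points of the 4 called genes in the top row are farther apart between groups than within them, while those of Neo1 overlap, and Plxna4 shows a wide spread on the empty vector arrays.

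The start-site windows of the called genes are shown as a description, and a link between these sequences and the differences was not tested. RefSeq windows of GRCm38.p6, from 250 bases before to 50 bases after a start, were matched for 48 of the 57 members (62 windows), and Plxna1 had no entry. The window of Sema5a is chr15:32244563-32244862, the upstream one of Sema6d chr2:124089719-124090018 and that of Plxnb1 chr9:109095186-109095485, all on the plus strand. Capitals mark the GC box GGGCGG or its complement CCGCCC, the binding motif of Sp-family factors.
Sema5a: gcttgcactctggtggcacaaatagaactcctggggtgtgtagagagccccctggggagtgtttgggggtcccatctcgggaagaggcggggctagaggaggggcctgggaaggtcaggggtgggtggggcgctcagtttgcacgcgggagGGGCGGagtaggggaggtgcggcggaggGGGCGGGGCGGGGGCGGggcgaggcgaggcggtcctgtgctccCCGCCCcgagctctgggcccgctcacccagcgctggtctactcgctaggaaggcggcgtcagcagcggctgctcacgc
Sema6d: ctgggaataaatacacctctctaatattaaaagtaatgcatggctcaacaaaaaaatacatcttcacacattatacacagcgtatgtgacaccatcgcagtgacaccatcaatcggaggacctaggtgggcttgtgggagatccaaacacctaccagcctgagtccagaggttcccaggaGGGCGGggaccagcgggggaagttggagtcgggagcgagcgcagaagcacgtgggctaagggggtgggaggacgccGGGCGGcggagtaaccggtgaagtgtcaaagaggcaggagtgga
Plxnb1: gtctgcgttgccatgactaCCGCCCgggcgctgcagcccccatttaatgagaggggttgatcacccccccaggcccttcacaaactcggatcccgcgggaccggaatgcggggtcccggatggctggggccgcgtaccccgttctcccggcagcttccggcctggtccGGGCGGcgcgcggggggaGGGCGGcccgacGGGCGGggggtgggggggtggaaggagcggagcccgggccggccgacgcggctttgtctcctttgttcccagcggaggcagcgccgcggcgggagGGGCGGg
The Sema5a and Plxnb1 windows held 5 GC boxes each, and the Sema6d window held 2, at GC contents of 71.3%, 74.7% and 54.3%. In Sema5a 1 pair of boxes shares a base. A second Sema6d window, at chr2:124653331-124653630, held none. The motif was present in 35.7% of all 32851 windows and in 71.0% of the member windows, whose median GC content was 63.8%, against 52.7% over all windows. The CCAAT motif (or ATTGG) was in none of these windows, against 37.4% of all windows and 32.3% of the member windows. TATAAA (or TTTATA) was also in none, against 13.6% of all windows and 3.23% of the member windows. The motif CACGTG, its own complement, occurred once in the first Sema6d window, and in 7.15% of all windows and 8.06% of the member windows. These are matches of letters, and binding at them was not measured.

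The 18 semaphorin genes had a median difference of 0.22, with 14 positive and 2 called higher (11.1%, against 1.36% of all clusters). Of the 4 class 6 genes, Sema6c stood at 0.65 (adjusted p = 0.149), Sema6a at 0.19 (adjusted p = 0.217) and Sema6b at 0.10 (adjusted p = 0.720), and the groups did not overlap for Sema6a, Sema6c and Sema6d. Over all clusters, groups lay apart for 10.3% with PTB shRNA higher and for 19% with PTB shRNA lower. Sema7a, the gene of a lipid-anchored semaphorin that binds plexin-C1 and integrins, measured 61, 62 and 83 with PTB shRNA and 40, 45 and 42 with empty vector. All its PTB shRNA values were higher, and the difference of 0.53 did not pass (adjusted p = 0.0740). Among the 5 class 4 genes, Sema4b measured 529, 434 and 488 with PTB shRNA and 842, 629 and 710 with empty vector. Its groups lay apart in the other direction, at -0.57 ± 0.14 (SE), which did not pass (adjusted p = 0.0791). With trend and robust settings of limma it was called lower (adjusted p = 0.0274). Sema4a (-0.02), Sema4g (0.15) and Sema4f (0.32) overlapped. The 6 secreted class 3 genes, whose proteins mostly repel axons, lay between -0.02 for Sema3c and 0.41 for Sema3e, and only the Sema3e groups did not overlap, at 44, 32 and 31 with PTB shRNA and 27, 22 and 19 with empty vector. None of these 6 genes exceeded a signal of 89 on any array.

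Plexins had the highest median of the families with more than 2 members, 0.49 over 8 genes. Of these, 2 were called higher (25%, against 1.36% of all clusters). Plxnc1, the gene of the receptor for the Sema7a product, gave 780, 713 and 548 with PTB shRNA and 380, 459 and 375 with empty vector. Its groups lay apart, and the difference of 0.72 ± 0.16 (SE) did not pass as deposited (adjusted p = 0.0689) but did after quantile normalization (0.90, adjusted p = 0.0479). Plxna4, whose protein acts with neuropilin-1 in responses to class 3 semaphorins and alone for class 6, measured 755, 776 and 927 with PTB shRNA and 245, 360 and 636 with empty vector. It had the widest spread of the brighter plexins, with empty vector array 3 far above the other two, and its difference of 1.06 ± 0.34 did not pass (adjusted p = 0.131). Plxna3, whose protein pairs with neuropilin-2, gave 385, 349 and 427 with PTB shRNA and 550, 666 and 568 with empty vector. Here the order of the groups was the opposite, at -0.60 ± 0.12 (SE), and the adjusted p of 0.0551 was just short of the threshold. It became 0.0398 with a pseudocount of 50 and 0.0705 after quantile normalization. Plxnb2 stood at 0.01 with a 95% interval from -0.23 to 0.25, Plxna2 at 0.27 and Plxnd1, the gene of the Sema3e receptor, at -0.36 (adjusted p = 0.315).

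Nrp1, the gene of the neuropilin that binds class 3 semaphorins and vascular endothelial growth factor, measured 1924, 1631 and 1780 with PTB shRNA and 945, 1095 and 1478 with empty vector. The groups did not overlap although empty vector array 3 came near, and the difference of 0.62 ± 0.18 (SE) did not pass (adjusted p = 0.110). It passed after quantile normalization (0.83, adjusted p = 0.0335). Slit2, the gene of a secreted repellent, showed a like picture, with 1800, 1653 and 1606 on the PTB shRNA arrays, against 884, 1065 and 1258 on the empty vector arrays. Its means were 1686 ± 101 with PTB shRNA and 1069 ± 187 with empty vector (SD, n = 3 each), and the difference of 0.66 ± 0.15 had an adjusted p of 0.0664, or 0.0261 after quantile normalization. Slit1 stood at 0.63 (adjusted p = 0.135) on signals of 25 to 46 with PTB shRNA and 15 to 25 with empty vector, which touch at 25.

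The genes of the Robo family had signals of 107 or less on every array. Robo1, which acts on migrating cells and axons, had 21 to 40 with PTB shRNA and 17 to 23 with empty vector, and Robo2 had 9 to 10 with PTB shRNA and 0 to 11 with empty vector. Robo3, known from commissural axons, stood at 0.37 (adjusted p = 0.255), on signals of 64 to 107 with PTB shRNA and 56 to 67 with empty vector. The endothelial Robo4 stood at 0.40 (adjusted p = 0.0933), on signals of 19 to 25 with PTB shRNA and 11 to 16 with empty vector. None of the 4 passed, and only the groups of Robo4 lay apart, in the direction seen for 10.3% of all clusters. Signals of different genes come from different probes and are not compared as levels. As a guide to dimness, leukocyte markers gave signals between 0 and 38, and 14 of the 57 members, Robo2 and Robo4 among them, never exceeded 38 on any array. That list was the dimmest, and the highest marker signals were 116 for epithelial, 123 for fibroblast, 193 for glial and 233 for endothelial genes.

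Ephrins and Eph receptors gave no call in either direction, with 2 of 7 and 2 of 12 genes higher and none lower at an unadjusted threshold of 0.05, where 8.49% of all clusters were higher and 16.9% lower. Efna5, a lipid-anchored ligand known from retinal maps, had 1460, 1333 and 1497 on the PTB shRNA arrays, against 1169, 1239 and 1375 on the empty vector arrays. Those groups overlapped, at a difference of 0.18 (adjusted p = 0.321), which became 0.37 after quantile normalization (adjusted p = 0.0374). Efna4 measured 58, 46 and 32 with PTB shRNA and 23, 6 and 27 with empty vector, a difference of 0.86 (adjusted p = 0.157). Efnb2, a transmembrane ligand of EphB receptors, gave 134, 118 and 106 on the PTB shRNA arrays, against 87, 67 and 91 on the empty vector arrays, and 0.47 (adjusted p = 0.108). For both genes the groups lay apart without passing. Among the 7 ephrin genes that share was 28.6%, against 10.3% of all clusters with PTB shRNA higher. Efna1, Efna2, Efnb1 and Efnb3 lay between 0.08 and 0.37.

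Among the receptors, Epha7, one of the receptors that bind A ephrins, had 433, 411 and 343 with PTB shRNA and 266, 268 and 322 with empty vector. The groups lay apart by 21 units at the nearest arrays, and the difference of 0.45 ± 0.13 (SE) did not pass (adjusted p = 0.106). Epha8 measured 39, 45 and 75 with PTB shRNA and 26, 16 and 26 with empty vector, a difference of 0.81 (adjusted p = 0.101). Epha1 (0.31) was the third Eph gene with groups apart, on signals of 18 to 24 with PTB shRNA and 9 to 16 with empty vector. These genes are 25% of the Eph receptors, against 10.3% of all clusters with groups apart and PTB shRNA higher. The other 6 EphA genes lay between 0.02 and 0.41, with Epha10 at 0.09, and the 3 EphB genes between -0.03 and 0.24. The widest interval of all members was that of Epha2, from -1.22 to 1.27, and its empty vector signals were 43, 48 and 3, against 36, 21 and 23 with PTB shRNA. Its dimmer row stood at 0.57.

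Netrins and their attractive receptors stayed without a call. Ntn1 had 24, 33 and 43 with PTB shRNA and 48, 19 and 15 with empty vector, Ntn3 a difference of 0.16 and Ntn4 one of -0.11. Dcc gave the same 3 signals, 17, 21 and 23, in both groups, a difference of 0.00 with an interval from -0.27 to 0.27. Neo1, which binds repulsive guidance molecules as well as netrins, measured 1553, 1514 and 1464 with PTB shRNA and 1723, 1810 and 1522 with empty vector. The groups overlapped, and its difference of -0.15, or 0.06 after quantile normalization, did not pass (adjusted p = 0.378).

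**Figure D2:**
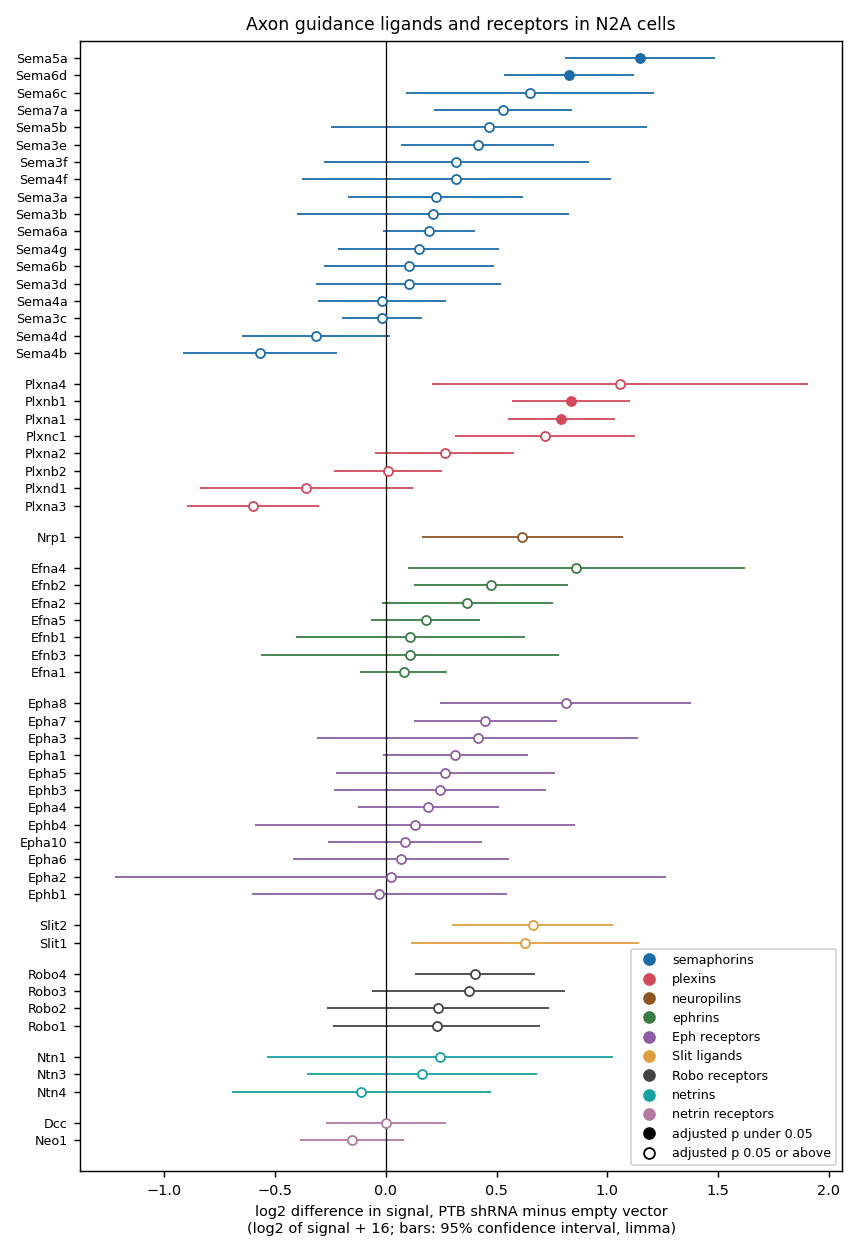
Log2 difference in signal, PTB shRNA minus empty vector (horizontal axis), for each of the 57 members (vertical axis, grouped by family), with bars for the 95% confidence interval and filled points for adjusted p under 0.05. Filled points appear for Sema5a, Sema6d, Plxna1 and Plxnb1, 47 points lie to the right of 0, 9 to the left and Dcc at 0.

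Across families, 47 differences were positive, 9 negative and 1 was 0, with a median of 0.24 over the members and 0.00 over all clusters. After quantile normalization 41 were positive with a median of 0.13, and after cyclic loess 42 with a median of 0.14. Ligands (30 genes, median 0.22, 2 or 6.67% called) and receptors (27 genes, median 0.24, 2 or 7.41% called) gave similar counts, against 1.36% of all clusters called higher. For 18 members (31.6%) every PTB shRNA array lay above every empty vector array, against 10.3% of all clusters, and for 3 members (5.26%) every one lay below, against 19% of all clusters. The differences varied with brightness. Over all clusters with a mean signal under 50 the median difference was 0.15, and the 27 members in that range had a median of 0.24 with none called. Between 50 and 200 the median was 0.13 over all clusters and 0.37 over 13 members, all positive and 2 higher. Between 200 and 500 it was -0.12 over all clusters and -0.02 over 5 members, of which 2 were positive and none passed. Among clusters with a mean signal of 500 or more the median was -0.20, while the 12 members there had a median of 0.40, with 2 higher and 9 positive. In order of brightness, 0.79%, 2.98%, 2.16% and 0.77% of all clusters in these ranges were called higher. The shares called lower were 0.086%, 1.44%, 5.90% and 6.37%. Quantile normalization brought the all-cluster medians of all 4 ranges to between 0.00 and 0.01, and the member medians to 0.02, 0.19, 0.05 and 0.60 in order of brightness.

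After quantile normalization 8 members were higher and 0 lower, against 2.93% of all clusters higher (505) and 2.86% lower (493), and the 8 included the 4 called before together with Plxnc1, Nrp1, Slit2 and Efna5. Cyclic loess, which removes shifts that vary with brightness and was added after the data were seen, gave 7 higher and 0 lower, against 2.52% of all clusters higher and 2.64% lower, again with the first 4 among them. Sema5a stood at 1.12 and 1.11 after these normalizations, Sema6d at 1.03 and 1.02, Plxna1 at 0.99 and 0.98, and Plxnb1 at 0.70 and 0.73. The 4 calls were thus kept under both.

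**Figure D3:**
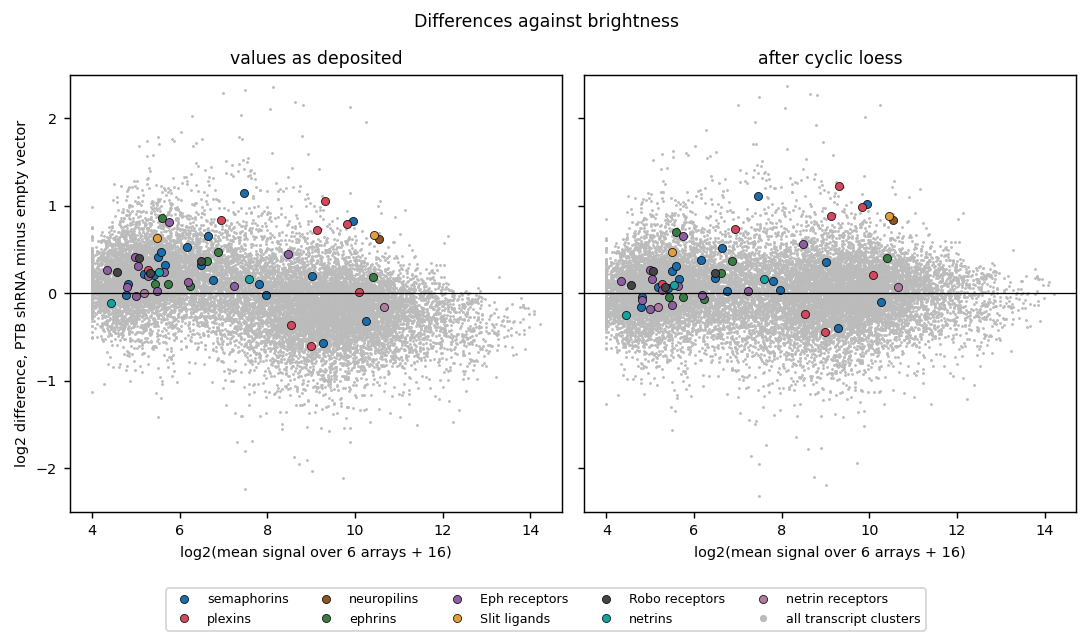
Log2 difference, PTB shRNA minus empty vector (vertical axis), against log2 of the mean signal over 6 arrays plus 16 (horizontal axis), for all 17213 clusters in grey and the 57 members in colour by family, as deposited on the left and after cyclic loess on the right. The grey cloud bends from above 0 among dim clusters to below 0 among bright ones on the left and is level on the right, where dim members centre near 0 and Sema6d, Plxna1, Nrp1 and Slit2 lie above its centre.

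Genes that act beside these families were taken from 3 lists of 143 genes, of which 123 were measured, and moved both ways. Over all of them 4 rose (3.25%, against 1.36% of all clusters) and 6 fell (4.88%, against 3.37% of all clusters). After quantile normalization 15 were higher (12.2%, against 2.93% of all clusters) and 4 lower (3.25%, against 2.86% of all clusters), with 4 and 3 genes shared with the first counts. Among 35 other ligands and receptors 2 rose (5.71%, against 1.36% of all clusters) and 1 fell (2.86%, against 3.37% of all clusters). Rgmb, the gene of a repulsive guidance molecule that binds neogenin, the Neo1 product, measured 350, 294 and 259 with PTB shRNA and 109, 139 and 121 with empty vector. All PTB shRNA values were above the others, and Rgmb rose by 1.19 ± 0.14 (SE; adjusted p = 0.0320). Flrt3, whose adhesion protein binds UNC5 and Robo receptors, rose by 1.84 (adjusted p = 0.0254) on signals of 71 to 96 with PTB shRNA and 7 to 19 with empty vector. Unc5b, the gene of a repulsive netrin receptor, gave 528, 504 and 559 with PTB shRNA and 728, 866 and 864 with empty vector. It fell, with a log2 difference of -0.61 ± 0.10 (SE; adjusted p = 0.0408), while Draxin, the gene of a secreted repellent that binds DCC, stood at 0.69 (adjusted p = 0.0518).

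Of 17 coreceptors and adhesion partners only 1 passed, and it was lower (5.88%, against 3.37% of all clusters). That gene was Itga6, a laminin receptor subunit, with 2057, 1784 and 1638 on the PTB shRNA arrays, against 2989, 3167 and 2608 on the empty vector arrays. It fell, with a difference of -0.67 (adjusted p = 0.0490), and its adjusted p was 0.161 after quantile normalization. The glypican Gpc4 (0.54), the contactin Cntn4 (-0.47) and the syndecan Sdc3 (0.39) did not pass. Among 71 cytoplasmic effectors 2 rose (2.82%, against 1.36% of all clusters) and 4 fell (5.63%, against 3.37% of all clusters). Cdk5r1, which encodes p35, the activator of the kinase Cdk5, had 331, 262 and 258 with PTB shRNA and 147, 142 and 143 with empty vector. It rose by 0.90 ± 0.12 (SE; adjusted p = 0.0320), whereas Cdk5 itself gave 636, 521 and 619 on the PTB shRNA arrays, against 889, 1021 and 991 on the empty vector arrays. Cdk5 fell, with a difference of -0.70 ± 0.11 (adjusted p = 0.0382). The activator gene and the kinase gene thus moved in opposite directions. Dpysl4, of the collapsin response mediator family that relays semaphorin signals to microtubules, rose by 1.08 on signals of 41 to 54 with PTB shRNA and 11 to 16 with empty vector (adjusted p = 0.0312). Yes1, a Src-family kinase gene, fell, with a difference of -0.86 ± 0.08 (SE; adjusted p = 0.0224), on closely spaced signals of 440, 425 and 443 with PTB shRNA and 766, 835 and 817 with empty vector. Mras, a Ras-family GTPase gene (-0.61, adjusted p = 0.0412), and Mical1, whose enzyme oxidises actin downstream of plexins (-0.58, adjusted p = 0.0453), fell as well. After quantile normalization the adjusted p of Mras was 0.0583 and that of Mical1 0.0551, and after cyclic loess that of Unc5b was 0.0560.

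**Figure D4:**
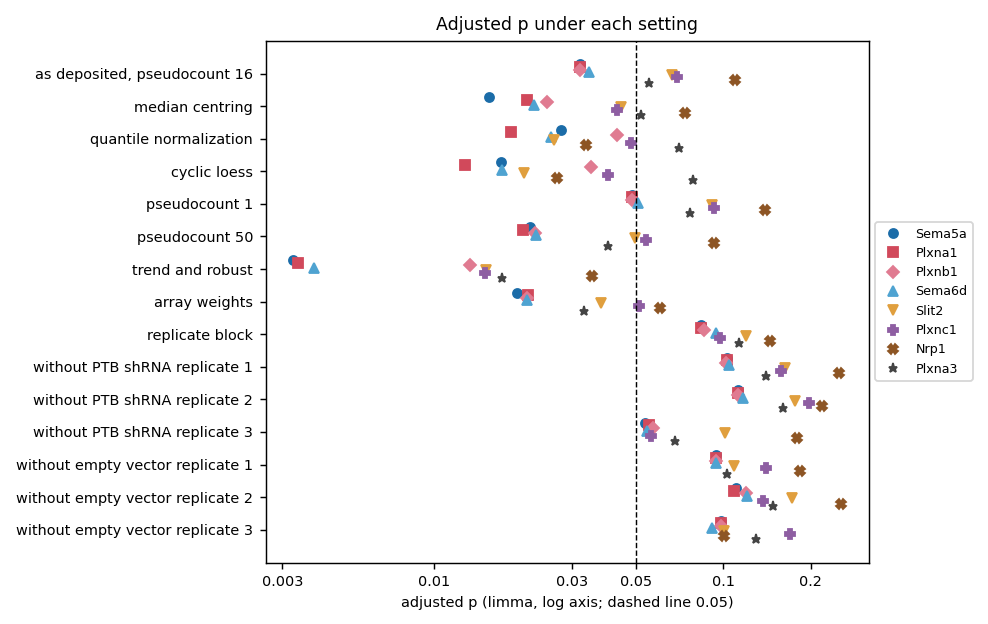
Adjusted p from limma (horizontal log axis, dashed line at 0.05) of 8 members under each processing setting (vertical axis). Sema5a, Plxna1 and Plxnb1 lie left of the line under every normalization and pseudocount, Sema6d does so except with a pseudocount of 1, and all 8 lie right of it with the replicate block or with any 1 array left out.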

How the data were processed

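Affymetrix mouse exon arrays were hybridised with target made from 1 µg of RNA after ribosomal depletion, per the labels' protocols. The authors deposited 1 intensity per transcript cluster and array on a linear scale (17213 rows, 6 arrays). The submitters' processing notes name GCOS 1.3. No source used here gives the probe summary, background subtraction or scaling, and 3.54% to 7.02% of values per array were at or below 0. Rows were named through the platform annotation (15146 with 1 symbol, 1278 with several, 789 with none), and all 57 members matched RefSeq by Entrez identifier.

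Values below 0 were set to 0, 16 was added and log2 taken, with no filter. Each cluster was fitted with limma 3.58.1 (R 4.3.3; lmFit, eBayes) on all 6 arrays without a block, with Benjamini-Hochberg adjustment over all clusters at 0.05. A simulation of 17213 clusters used independent normal noise at each cluster's fitted spread, without a shift that varies with brightness. Changes were put only in clusters above the median mean signal, so dimmer members are not covered. Under that setting limma called 2.94% of the 68 that were changed by 0.5 log2 units. It called 71.2% of the 66 changed by 1 unit and 100% of the 66 changed by 2, with 2 false calls. A difference near 0.5 that did not pass is therefore no evidence that a gene was unchanged. Figures used Python 3.11.15 and matplotlib 3.10.9. Precision is limited by having 3 arrays a group, and no batch is named in the labels. No 2 arrays held the same values throughout.

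The members and lists were chosen with earlier results of these data known. Values are given for members that passed, for those with groups apart by at least 0.5 log2 units, for the 2 brightest and the 2 most different of each family, and for Ptbp1, Ptbp2 and Ptbp3. From each list of other genes those that passed were named, filled up to 4 by size. That rule named 28 members and 14 other genes, and any further gene was named after its values were seen. Alternatives were other normalizations, trend and robust eBayes, array weights, pseudocounts of 1 and 50, fits without the dimmest 30% or 50%, the mean of a gene's rows, a replicate block, and fits without 1 array at a time.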

Additional observations from a re-analysis of the deposited data

How the results depend on the processing

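Over all clusters, 234 higher and 580 lower became 505 higher after quantile normalization, 434 higher after cyclic loess and 376 higher after centring on the median. A pseudocount of 1 gave 84 and 132, and 1 of 50 gave 930 lower. Leaving out the dimmest 30% gave 499 and 1386, the dimmest 50% 386 and 2100, trend and robust settings 463 and 1502, and array weights 445 and 1180. Among members, 4 higher and 0 lower became 8 higher (quantile), 7 (cyclic loess), 10 and 2 lower (dimmest 30% out), 7 and 2 (dimmest 50% out) and 8 and 2 (trend and robust), with 1 lower with array weights or a pseudocount of 50. The mean of a gene's rows left 4 and 0. Plxna3 was the lower member with array weights (limma adjusted p = 0.0330) and with a pseudocount of 50 (0.0398). With trend and robust settings the lower members were Plxna3 (0.0171) and Sema4b (0.0274). Among other axon guidance genes, 4 higher and 6 lower became 15 higher (quantile), 12 (cyclic loess), 8 (centring), 9 (pseudocount 50), 9 and 11 lower (dimmest 30% out), 8 and 15 (dimmest 50% out), 8 and 12 (trend and robust), 7 higher (array weights) and 1 lower (pseudocount 1). Leaving out any 1 array brought all these counts to 0 (lowest and highest 0), with 10 to 19 members higher and 2 to 3 lower at an unadjusted 0.05, beside 1001 to 1721 and 2008 to 3018 of all clusters. The replicate block also brought all counts to 0, with 17 members higher and 3 lower at an unadjusted 0.05, beside 1708 and 2963 of all clusters. Same-numbered arrays correlated in their deviations at 0.23, 0.055 and 0.26, and arrays of different numbers at -0.26 to 0.050. Every array correlated best with its own number, for PTB shRNA array 2 only narrowly (0.055, against 0.050 with empty vector array 1). Deviations within a group sum to 0, so these correlations are not independent and do not settle a pairing. The main fit has no block because the labels name no pairing, and whether same-numbered samples share a batch was not tested. Ptbp1 did not pass with a pseudocount of 1 (-1.52, adjusted p = 0.0605), under the block (-1.51, adjusted p = 0.0840) or with any array left out (-1.75 to -1.30). The cause of these changes was not tested.

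Of 57 members 40, the 4 called ones among them, did not change direction under any alternative, and Dcc had a difference of 0 to start from (-0.068 to 0.068 with 1 array left out, -0.19 after quantile normalization and 0.024 after centring). Quantile normalization and cyclic loess turned Sema3d (-0.066 and -0.043), Sema4a (0.046 and 0.040), Efna1 (-0.12 and -0.070), Efnb1 (-0.10 and -0.047), Efnb3 (-0.12 and -0.049), Epha2 (-0.20 and -0.13), Epha6 (-0.13 and -0.077), Ephb4 (-0.076 and -0.020) and Neo1 (0.057 and 0.073), and quantile normalization turned Epha4 (-0.015). Centring turned Sema3c (0.0068) and Sema4a (0.0076), a pseudocount of 50 turned Epha2 (-0.039), and array weights turned Epha2 (-0.27), Epha6 (-0.051) and Ephb4 (-0.0077). With 1 array left out the sign varied for Sema3d (-0.013 to 0.27), Sema4a (-0.11 to 0.057), Sema6b (-0.023 to 0.19), Plxnb2 (-0.062 to 0.075), Efnb1 (-0.045 to 0.25), Efnb3 (-0.16 to 0.36), Epha10 (-0.025 to 0.15), Epha2 (-0.54 to 0.33), Epha6 (-0.084 to 0.21), Ephb1 (-0.26 to 0.10), Ephb4 (-0.12 to 0.32) and Ntn4 (-0.27 to 0.073). The cause was not tested.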
